A study of Homo sapiens with 6 samples.

Results

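The narrow NFATc2 islands were the 139 enriched regions of at most 1000 bp on chromosomes 1 to 22, out of 32760 islands in the whole list and 32683 on those chromosomes. They were chosen by width alone, at any fold change, and were compared with the 32544 wider islands of the same chromosomes. Another 22 narrow islands on chromosomes X and Y were not members. The data were ChIP-seq for the transcription factor NFATc2 in untreated THP-1 cells, a human acute myeloid leukaemia line that carries the MLL-AF9 fusion, with 3 precipitated (NFATc2 IP) and 3 unprecipitated (Input DNA) libraries of sheared chromatin. All 6 libraries were of the same untreated line fixed with formaldehyde, so the comparison was IP against input and not between treatments. Islands had been called on the libraries together, so 1 fold change is known per island and no spread between biological replicates can be given. Intervals below are 95% intervals that cover counting error in the pooled reads only.

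The NFATc proteins, which include NFATc2, are transcription factors released into the nucleus by calcineurin, a calcium-dependent phosphatase. There they bind short sites with the core GGAAA, often beside other factors. In T cells they are best known for switching on cytokine and other immune genes, and their role in myeloid cells has been studied less. An island is a run of 200 bp windows rich in IP reads, and the caller that made the list is built to join such windows into broad domains. The input enters afterwards, when the IP reads of the whole island are compared with what the input predicts. The log2 fold change is that of IP reads over input reads scaled for depth, so 0 is no enrichment and 1 is a doubling.

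The narrow islands were short, dense in reads and mostly more enriched than the wide ones. Among them 22 were 200 bp wide, 37 were 400 bp, 19 were 600 bp, 33 were 800 bp and 28 were 1000 bp. Their median log2 fold change was 1.10 (quartiles 0.79 and 1.50), against 0.39 (0.29 and 0.53) for the wider islands. A log2 fold change above 1 was found in 84 of the 139, or 60.4%, where 1.55% of all islands on these chromosomes passed it. The narrow class thus held 16.6% of the 505 islands above that value. With the lower end of the counting interval above 1, 26 narrow islands remained, or 18.7%, against a background of 0.165%, and these were 26 of 54 such islands in all. Width, fold and reads come from the contrast that made the list, so these values describe the class and no test was made on them.

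Reads per island showed that the input was dense there too. At the median, a narrow island had 66 reads from IP and 58 from input, and a wider one 148 and 199. Per kb, the narrow islands had 142.5 IP reads and 110 input reads, and the wider islands 31.5 and 42.0. IP reads per kb were therefore higher in the narrow class, and so were input reads per kb. Set against the median of the wider islands within 2 Mb, which 117 of the members had in sufficient number, input reads per kb were 2.72 times as high at the median narrow island (quartiles 1.59 and 4.51), and higher in 111 of the 117. The part of this input density in the fold changes was not tested.

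The change at the width limit was gradual. Islands just inside it, at 1000 bp, had a median log2 fold change of 0.85 and 78 input reads per kb. The 108 islands just outside, at 1200 or 1400 bp, had 0.90 and 57.9 input reads per kb. By width within the class, the median log2 fold change was 1.21 at 200 bp, 1.29 at 400 bp, 1.20 at 600 bp and 1.09 at 800 bp, with broad overlap of the quartiles.

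Where these islands lie was read from the hg19 positions of known genes. A gene start, taken here as an island within 1 kb of it, was found for 59 of the 139. A further 23 islands lay inside a named gene away from its start, and 3 lay on retrocopies, which are processed copies of a spliced transcript put back into the genome. Another 18 lay within 2 Mb of a centromere gap, and 36 were left unnamed. Many of the genes are known for high, steady expression in most cells, which was not measured here. The positions were written from knowledge of hg19, 48 of the 59 after the islands had been seen, so counts of genes at islands are a description and were not tested. Of the 59 positions, 46 matched GENCODE in both length and spacing to a neighbouring gene, 12 in length alone and 1 in spacing alone.

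**Figure D1:**
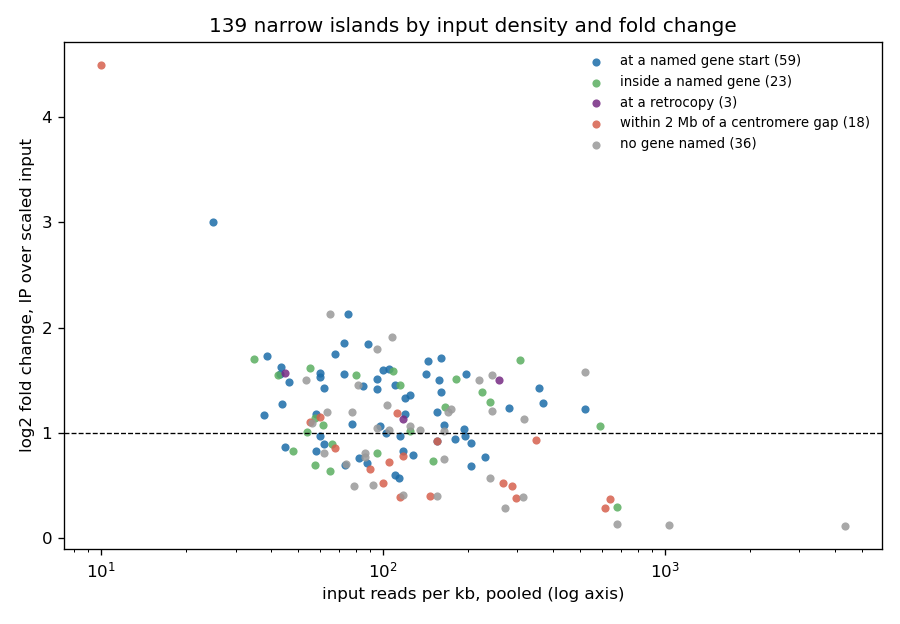
Log2 enrichment in IP over input (y axis) against pooled input reads per kb on a log axis (x axis) for the 139 narrow islands, 1 point per island, coloured by location. The strongest island, near the chromosome 11 centromere gap, had the fewest input reads per kb (10), and the islands with the most input reads per kb had log2 fold changes near 0. Islands of such low fold with few reads could not pass the FDR limit of the list, and input is also the denominator of the fold.

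RefSeq promoters, from 250 bases before the start to 50 after it, are shown for 4 gene groups, in each for the gene of highest log2 fold change among the islands that contained the gene start, so that the sequence printed is the one under or beside the island. These were NDUFA13, NHP2, MIF and PFN1. VIM had a higher value than PFN1 in its group, but its island did not contain the start. IFITM1 is shown as well because its island was the highest at any gene. That island began 495 bp downstream of the hg19 gene start used here. The printed window was placed from the RefSeq start, which may be another one, so whether window and island overlap was not determined. The windows are of GRCh38.p14, while the islands are in hg19, and no position was carried between the builds. IFITM1 is on chromosome 11 from 313790 to 314089 on the plus strand, NDUFA13 on chromosome 19 from 19515975 to 19516274 on the plus strand, NHP2 on chromosome 5 from 178153836 to 178154135 on the minus strand, MIF on chromosome 22 from 23894133 to 23894432 on the plus strand, and PFN1 on chromosome 17 from 4948481 to 4948780 on the minus strand. Capitals mark GGAAA or its reverse complement TTTCC.
IFITM1: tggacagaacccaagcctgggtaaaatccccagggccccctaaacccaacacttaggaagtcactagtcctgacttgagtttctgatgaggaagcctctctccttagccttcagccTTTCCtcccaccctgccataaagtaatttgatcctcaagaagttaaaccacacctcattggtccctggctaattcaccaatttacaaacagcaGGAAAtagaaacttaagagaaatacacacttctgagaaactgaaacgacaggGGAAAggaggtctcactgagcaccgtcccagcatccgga
NDUFA13: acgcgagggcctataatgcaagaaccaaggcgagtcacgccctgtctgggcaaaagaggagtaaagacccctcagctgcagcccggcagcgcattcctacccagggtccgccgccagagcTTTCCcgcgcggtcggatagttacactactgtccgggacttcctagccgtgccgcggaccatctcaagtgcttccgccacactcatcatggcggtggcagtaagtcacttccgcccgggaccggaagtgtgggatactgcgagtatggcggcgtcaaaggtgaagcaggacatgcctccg
NHP2: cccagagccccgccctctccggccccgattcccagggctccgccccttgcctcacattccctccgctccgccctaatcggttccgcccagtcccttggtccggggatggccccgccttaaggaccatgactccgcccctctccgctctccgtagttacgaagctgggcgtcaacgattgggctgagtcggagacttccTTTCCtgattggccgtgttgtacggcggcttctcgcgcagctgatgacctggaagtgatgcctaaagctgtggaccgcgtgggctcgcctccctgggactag
MIF: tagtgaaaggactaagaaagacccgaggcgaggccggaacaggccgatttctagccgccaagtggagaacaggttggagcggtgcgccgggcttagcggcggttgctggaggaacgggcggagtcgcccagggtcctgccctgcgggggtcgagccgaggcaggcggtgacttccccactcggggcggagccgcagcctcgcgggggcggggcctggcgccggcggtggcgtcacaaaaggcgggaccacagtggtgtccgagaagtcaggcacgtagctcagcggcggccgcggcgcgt
PFN1: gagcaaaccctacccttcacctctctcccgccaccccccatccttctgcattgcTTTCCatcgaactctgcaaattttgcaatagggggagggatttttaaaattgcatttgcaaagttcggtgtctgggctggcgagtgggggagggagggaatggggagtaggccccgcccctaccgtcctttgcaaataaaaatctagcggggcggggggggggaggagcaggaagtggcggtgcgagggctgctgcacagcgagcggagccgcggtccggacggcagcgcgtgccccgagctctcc
IFITM1 held the core 3 times, NDUFA13, NHP2 and PFN1 once each, and MIF not at all.

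Over all gene-start genes the GGAAA core was no more frequent in these promoter windows than in those of other genes. Of the 60 genes with their start at a narrow island, 49 had a promoter in the RefSeq set, and 29 of these, or 59.2%, held GGAAA on either strand, against 59.3% of 15100 protein-coding promoters on chromosomes 1 to 22 and 61.4% of all 26246. The letters CCGGAA, the core bound by ETS factors, were in 22 of the 49 promoters (44.9%), against 23.1% of protein-coding promoters. CACGTG, the E-box bound by MYC and its relatives, was in 9 (18.4%, against 8.77%), and AAGATGGC, bound by YY1, was in 5 (10.2%, against 3.91%). GCATGCGC, bound by NRF1, was in 1 of the 49 (2.04%, against 4.19%). CCAAT was in 16 (32.7%, against 36.0%) and TATAAA in 5 (10.2%, against 9.71%). The promoters held 9.33 CpG per 100 bases at the median, against 7.33 in protein-coding promoters. These matches are letters in the window and not measured sites. The windows are also not the islands, whose first and last bases lay at medians of -115 and 294 bp from the gene start. Island sequence outside the windows was not searched, so the shares do not tell how often the islands hold the core.

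Subunits of oxidative phosphorylation made up the largest metabolic group at gene starts, with 11 of the 59 islands. Of their genes only COX8A was on the gene lists, and the others were looked up after the islands were seen. Among the 7 listed genes of this kind, COX8A alone had a narrow island, so the size of the group is a description. The chain passes electrons through complexes I to IV in the inner mitochondrial membrane, and complex V makes ATP. Log2 fold changes were above 1 in 8 of the 11 (72.7%), near the 67.8% of all gene-start islands, with medians of 1.33 and 1.28. All 11 intervals lay above 0, as did those of all 59 gene-start islands and 75.2% of all islands on these chromosomes. Islands were listed only where IP exceeded scaled input, so this does not set the group apart. Pooled over the group, 620 IP reads stood against 467 input reads, a log2 fold change of 1.24 (1.07 to 1.42).
NDUFA13, a complex I subunit, had 37 IP and 15 input reads in an island of 200 bp from 19627001 to 19627200 on chromosome 19, which is a log2 fold change of 2.13 (1.23 to 3.11). The other complex I genes were lower: NDUFB2 had 1.33 (0.54 to 2.15), NDUFAB1, the mitochondrial acyl carrier protein, had 1.09 (0.36 to 1.82), and NDUFA11 had 1.07 (0.37 to 1.79). Their intervals overlapped each other and that of NDUFA13, so the order within complex I was not resolved at this depth.
UQCR11 of complex III had 51 IP and 27 input reads, or 1.75 (1.05 to 2.48). UQCRH, the hinge subunit of the same complex, had 76 and 69 reads and 0.97 (0.48 to 1.46). Complex IV, cytochrome c oxidase, was represented by COX5A at 1.51 (0.91 to 2.14) and by COX8A at 0.83 (0.28 to 1.38). Complex V was represented by ATP5MK at 1.74 (1.08 to 2.41), ATP5F1E at 1.39 (0.91 to 1.87) and ATP5MC3, a gene for the membrane ring subunit, at 0.79 (0.32 to 1.27). Lower bounds above 1 were reached by NDUFA13, UQCR11 and ATP5MK, or 27.3% of the group, near the 23.7% of all gene-start islands.

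**Figure D2:**
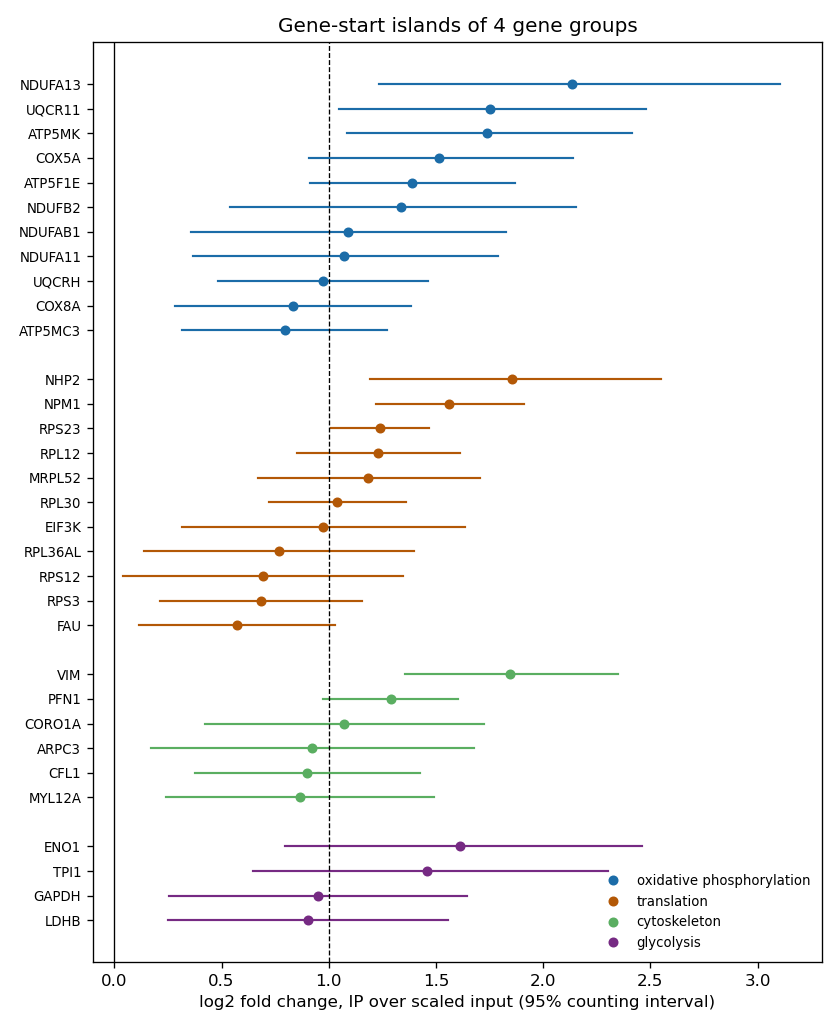
Log2 enrichment in IP over input for the gene-start islands of 4 gene groups (x axis), 1 row per named island, with points for the value and lines for its 95% counting interval; the solid line is 0 and the dashed line 1. All intervals lie above 0, as they did at every gene-start island, and most of them cross 1.

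Genes of the ribosome and of translation gave 12 gene-start islands, with a pooled log2 fold change of 1.15 (1.03 to 1.26). Of these 7 were above 1 (58.3%, against 67.8% of all gene-start islands). NHP2, a component of the H/ACA ribonucleoprotein that modifies ribosomal RNA, had the highest, 1.86 (1.19 to 2.55), from 59 IP and 29 input reads. It was followed by NPM1, the nucleolar chaperone nucleophosmin, with 1.56 (1.22 to 1.91) from 189 and 114 reads. Among ribosomal protein genes, RPS23 held 371 IP and 280 input reads and 1.24 (1.01 to 1.47), the most IP reads of any gene-start island. RPL12 held 137 and 104 reads in only 200 bp, which made it the densest gene-start island, with 685 IP and 520 input reads per kb. At the low end were RPS12 with 0.69 (0.04 to 1.35), RPS3 with 0.68 (0.21 to 1.15) and FAU with 0.57 (0.11 to 1.03).
Between these were MRPL52, RPL30, EIF3K and RPL36AL, from 0.77 to 1.18.

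Cytoskeletal genes gave 6 gene-start islands and glycolytic genes 4. VIM, the intermediate filament vimentin, had 107 IP and 53 input reads, or 1.85 (1.36 to 2.35), in an island that began 943 bp downstream of the gene start. PFN1, the actin-binding profilin, had 203 and 148 reads and 1.29 (0.98 to 1.60). CORO1A, CFL1, ARPC3 and MYL12A, which act on actin filaments or on myosin, ranged from 0.86 to 1.07. For glycolysis, ENO1 had 1.61 (0.79 to 2.46), TPI1 1.46 (0.64 to 2.30), GAPDH 0.95 (0.26 to 1.64) and LDHB, which interconverts lactate and pyruvate, 0.90 (0.25 to 1.55). All 4 glycolytic islands were 200 bp wide, with 34 to 43 IP reads each, and their intervals overlapped throughout.

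Immune genes, beside IFITM1, gave 7 gene-start islands with a pooled log2 fold change of 1.53 (1.37 to 1.69), against 1.26 (1.19 to 1.32) for all 59. No list of immune genes was written beforehand, and all 7 were looked up after the islands were seen. MIF and IGLV1-44 held 236 and 261 of the 868 pooled IP reads, and single values ran from 0.83 to 1.71. IFITM1 came from the list of interferon and antigen genes, where 1 of 10 had a narrow island, 3 a wider one and 6 neither. IFITM1, an interferon-induced membrane protein that restricts virus entry, had 45 IP reads against 10 input reads in an island of 400 bp on chromosome 11 from 314001 to 314400. Its log2 fold change of 3.00 (1.99 to 4.16) was the highest of any gene-start island. Unlike most members it lay where the input was thin, at 25 input reads per kb, or 0.543 times that of the wider islands around it. MIF, a cytokine also secreted by many non-immune cells, had 236 and 128 reads and 1.71 (1.40 to 2.04).
Several genes best known from lymphocytes were among the members, although the line is monocytic. They were looked up after the islands were seen, and lymphocyte genes without a narrow island were not counted. MS4A1, which encodes the B-cell antigen CD20, had 100 IP and 63 input reads and 1.50 (1.03 to 1.98). IGLV1-44, an immunoglobulin light chain segment, had 261 and 158 reads and 1.56 (1.27 to 1.85), with its position passing on length alone. MZB1, which helps immunoglobulin assembly in the endoplasmic reticulum, had 71 and 43 reads and 1.56 (0.99 to 2.14). CD52, a surface glycoprotein of lymphocytes and monocytes, had an island at its start, 1.69 (1.21 to 2.18), and another at its far end, 0.83 (0.22 to 1.44). An island on chromosome 14 from 106214001 to 106214600 lay 4.59 kb from IGHG1 in the heavy chain locus, with 49 and 38 reads and 1.20 (0.56 to 1.85). P2RX5 had 1.17 (0.52 to 1.82) and LAPTM5, a lysosomal protein of blood cells, 0.83 (0.22 to 1.45). Lower still was an island inside NIBAN3, grouped with the immune genes but away from its start, with 42 and 46 reads and 0.70 (0.06 to 1.34). Whether these genes were expressed in these cells was not measured here.

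Other gene starts with high values belonged to genes of general function. PTMA, the acidic nuclear protein prothymosin alpha, had 216 IP and 143 input reads and 1.43 (1.12 to 1.74). OAZ1, the inhibitor of polyamine synthesis, had 1.60 (1.01 to 2.20), and TXN, the redox protein thioredoxin, had 1.56 (0.86 to 2.28). An island of 400 bp between the divergent genes RAB24 and PRELID1 had 1.57 (0.80 to 2.36). EDF1, REX1BD and ERGIC3 were also among the 40 strongest islands, at 1.53, 1.62 and 1.48. The 2 noncoding RNA genes, RN7SL1 and ZFAS1, were low, at 0.76 (0.29 to 1.22) and 0.61 (0.19 to 1.02).

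Most gene-start islands lay across the start. The island contained the gene start in 46 of the 59, and its midpoint lay downstream of the start in 47. Over all 59, with upstream positions counted as negative, the median midpoint was 98.5 bp downstream of the start (quartiles 30.5 and 229 bp). Pooled over the 59, 4699 IP reads and 3501 input reads gave a log2 fold change of 1.26 (1.19 to 1.32), and this value fell inside the counting interval of 50 of the 59 islands. That is 84.7% (73.0 to 92.8%), where counting error alone around 1 shared value would give about 95%. Most single genes were thus not resolved from the pooled value, and differences between pairs of genes were not tested. Island ends move in steps of 200 bp, which limits how finely a position can be read.
The genes named at these starts were short. They were written from memory, mostly after the islands were seen, so the comparison below may depend on which genes could be named. The 57 that are protein-coding in GENCODE spanned a median of 6871 bp with 5 exons, against 27877 bp and 8 exons for all 19111 protein-coding genes on these chromosomes, and their transcripts were 1148 bases long against 2903.

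**Figure D3:**
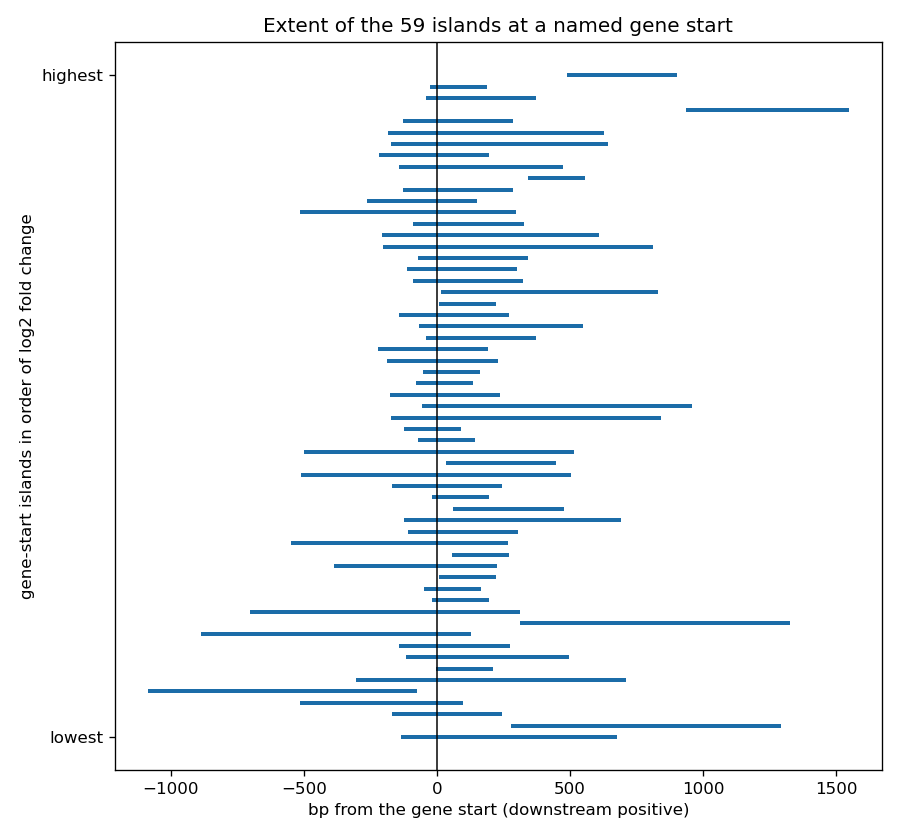
Extent of the 59 narrow islands at a named gene start, in bp from the start with downstream positive (x axis), 1 line per island in order of log2 fold change from the highest at the top (y axis). Most lines cross 0, and the island of highest fold, at IFITM1, begins 495 bp downstream of the start used here.

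The 3 islands on retrocopies had log2 fold changes within the range of the gene-start islands. RPLP0P6, a processed copy of the ribosomal protein gene RPLP0 with 98.8% identical bases, held 413 IP and 259 input reads over 1000 bp, or 1.51 (1.28 to 1.73). UQCRHL, a copy of the complex III gene UQCRH with 98.6% identity, had 45 and 27 reads and 1.57 (0.85 to 2.31). NACA2, a copy of NACA with 94.4% identity over the aligned part, had 145 and 118 reads and 1.13 (0.77 to 1.49). Because copy and parent are nearly identical, reads of the 2 may be exchanged in mapping, and values at either are uncertain. The parent UQCRH had a narrow island of its own and RPLP0 a wider one.

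Away from gene starts, 23 islands lay inside genes. Their median log2 fold change was 1.14, and the highest were those in PLCL1, 1.70 (1.09 to 2.34), and EPB41, 1.70 (1.23 to 2.17). The EPB41 island, on chromosome 1 from 29309001 to 29309200, held 111 IP and 61 input reads in 200 bp. Lower among the 40 strongest were islands in USP37 (1.62), BAIAP2L1 (1.59), AK9 (1.55), GAREM1 (1.55), PLEKHA7 (1.51) and GOLGA3 (1.46). Among the 20 densest in IP reads, VPS53 had 1.29 (0.90 to 1.69), and the pseudogene ROCK1P1 had 93 IP and 135 input reads in 200 bp and 0.29 (-0.10 to 0.69). The island in TUBA1B, an alpha-tubulin gene, lay at its far end and had 1.01 (0.46 to 1.56). An island in SLC35F1 held 277 and 235 reads in 400 bp and 1.07 (0.81 to 1.33). Among the 36 left unnamed, an island on chromosome 10 from 66137601 to 66137800 had 32 IP and 13 input reads and 2.13 (1.16 to 3.19), one on chromosome 9 from 74204401 to 74204800 had 91 and 43 reads and 1.91 (1.37 to 2.47), and one on chromosome 16 from 76269401 to 76269600 had 174 and 104 reads in 200 bp and 1.57 (1.22 to 1.94).
The lowest values came with the densest input. The FDR limit of the list in part fixes this, because an island of such low fold can pass it only with many reads. An island on chromosome 22 from 18717801 to 18718200 held 1062 IP and 1738 input reads in 400 bp, which is 83.6 times the input per kb of its wider neighbours, and its log2 fold change was 0.12 (0.01 to 0.23). The other chromosome 22 island near it, from 18879801 to 18880800, had 417 and 675 reads and 0.14 (-0.04 to 0.32). Counting intervals reached 0 in 12 narrow islands, and none of these was at a gene start. The interval lay above 0 in 91.4% of narrow islands, near the 90.7% of islands of 1200 or 1400 bp, and in 75.2% of all islands on these chromosomes.

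Narrow islands lay near centromeres more often than the wider islands as a whole. The share was similar just outside the width limit. Of the 108 islands of 1200 or 1400 bp, 13 lay within 2 Mb of a centromere gap (12.04%, interval 6.57 to 19.7%). Within 2 Mb of a centromere gap were 19 of the 139 (13.7%, exact binomial interval 8.43 to 20.5%), against 2.87% of the wider islands. The 18 of them with no named gene included the strongest narrow island, on chromosome 11 from 51588201 to 51589000, 55.2 kb from the gap, where 101 IP reads met 8 from input, which gave a log2 fold change of 4.49 (3.46 to 5.74). The other 17 were between 0.29 and 1.19, with a median of 0.66. Pooled, the 18 had 2020 IP and 2337 input reads, for a log2 fold change of 0.62 (0.53 to 0.71), below the interval for gene starts. The nearest gap edges matched the islands closely: no island lay wholly inside a gap, and the 4 that crossed an edge did so by at most 83 bp.

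Most narrow islands stood alone. Another island of any width lay within 10 kb of 32.4% of them (24.7 to 40.8%), against 49.1% of the wider islands, and within 50 kb the shares were 46.8% and 86.7%. Just outside the width limit, at 1200 or 1400 bp, the share within 10 kb was 41.7% (32.3 to 51.5%), with an interval that overlapped the narrow one. The median distance to the nearest island was 73.4 kb for the narrow and 10.4 kb for the wider class. At gene starts 11 of 59 had a neighbour within 10 kb, and near centromere gaps 15 of 18.

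By chromosome, the narrow islands followed another pattern than the wider ones. The 2 classes were spread differently over the 22 chromosomes (chi-square 627, 21 degrees of freedom, p = 3.55e-119), with islands treated as independent, which neighbouring islands are not. Expected narrow counts were also small on some chromosomes, where the chi-square approximation is poor, so its p is only approximate, here and in the alternatives. After Benjamini-Hochberg adjustment over 22 two-sided Fisher exact tests, 7 chromosomes held a larger share of the narrow islands and 4 a smaller one. Chromosome 19 held 14 of 139 narrow islands (10.1%) but 212 of 32544 wider ones (0.651%), an odds ratio of 17.08 (Fisher exact test, adjusted p = 2.29e-11). Chromosome 11 held 14 narrow islands and 387 wider ones (odds ratio 9.31, Fisher exact test, adjusted p = 2.25e-08). Chromosomes 16, 18 and 22 had odds ratios of 14.3, 19.2 and 41.9, from 8, 5 and 4 narrow islands and 138, 63 and 23 wider ones. Their adjusted Fisher exact p were 1.24e-06, 3.99e-05 and 2.24e-05. Wider islands per Mb were lowest on these chromosomes, at 1.53, 0.81 and 0.45. Narrow islands per Mb were 0.089, 0.064 and 0.078 there, against 0.237 on chromosome 19. Their odds ratios thus reflect few wider islands as well as the narrow ones. In the other direction, chromosome 3 held 4014 wider islands and no narrow one (Fisher exact test, adjusted p = 2.04e-07), and chromosome 6 held 5214 wider and 8 narrow ones (odds ratio 0.32, Fisher exact test, adjusted p = 0.00134).
With islands of the same class less than 1 Mb apart counted once, 117 narrow and 339 wider islands were left. The spread still differed (chi-square 48.9, p = 0.000524), 1 chromosome passed the adjusted threshold in place of 11, and chromosome 19 did not (adjusted p = 0.0914).

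More narrow islands per Mb were found where protein-coding genes were denser, over the 22 chromosomes (Spearman rho 0.67, Pearson r 0.89), while wider islands showed no such relation (rho -0.30, r -0.30). Chromosomes are few and share libraries and copy number, so no p is given. With the 2 chromosomes of most unusual gene density (19 and 17) left out, the narrow islands gave 0.57 and 0.66. Islands at gene starts gave a rho of 0.66 and an r of 0.89, and the narrow islands not at gene starts gave 0.68 and 0.82.

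Over 12 gene lists, few genes had a narrow island. Of 122 listed genes 12 had one overlapping the gene or within 1 kb of it, 45 had a wider island and 67 had neither. The 12 were PFN1, CFL1, TUBA1B, VIM and CORO1A among 14 cytoskeleton genes, GAPDH, ENO1 and TPI1 among 5 glycolysis genes, and NPM1, IFITM1, RN7SL1 and COX8A from 4 other lists. CFL1 and GAPDH also had a wider island, at 1.00 and 0.99. Of 7 listed oxidative phosphorylation genes, COX8A had the only narrow island and 5 had wider ones, the highest being COX7C at 1.24 and COX4I1 at 1.16. No narrow island was at any of 18 myeloid genes, of which 4 had wider islands, or of 17 early response genes, of which 2 had wider ones. NFATC2 itself had 2 wider islands, the higher at 0.58, and MYC had a wider one at 0.85. Neither had a narrow island, and no narrow island was at the other genes of that list of NFAT, MYC and cyclin genes.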

How the data were processed

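The list of islands was called by the authors with epic2, which looks for broad domains, on the 3 IP and 3 input libraries at once, at a false discovery rate below 0.05. Per the submitters' notes, reads in hg19 were handled with BWA 0.7.17.1 and Trimmomatic 0.36.5, and also with ChIPseeker 1.18.0, SICER 0.0.52 and SAMtools 1.3.1. The deposited score is 100 times the log2 fold change with its decimals cut off. The deposited log2 fold change compares IP with depth-scaled input, and epic2 also gave the deposited −log10 p and, as another column, −log10 of the FDR. No step of the authors that took out blacklisted regions was applied here.

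Numbers of reads were recovered from fold and p through the caller's Poisson formula, with a scaling factor of 0.5618. Input reads were whole within 0.02 in 32751 islands and in all 139 members. The method was tested on simulated islands. Intervals are exact Clopper-Pearson intervals at 95%. PCR reads are not independent molecules, so intervals cover counting error only.

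The members and lists were chosen with earlier results of these data known. No hg19 annotation was given. Gene positions in hg19 were written from memory, for most named genes after the islands had been seen, and checked against GENCODE release 44 (GRCh38) without converting any coordinate. Of 198 positions, 195 were kept: 159 matched in length and in spacing to a listed neighbour within 500 bp, 32 in length alone and 4 in spacing alone, of which the last could differ by up to 25% in length. A position kept on length alone was not checked against a neighbour. Named genes were all listed genes at a narrow island and those at the 40 narrow islands of highest fold and the 20 of most IP reads per kb. One gene is counted but not reported here by name. Any other gene was chosen after its values were seen. Of the 40, 31 were at a named gene, and of the 20, 10. Chromosome lengths and centromere gaps of hg19 were written in the same way. Protein-coding genes per chromosome were counted in RefSeq. Tools were Biopython 1.88, matplotlib 3.10.9, pandas 2.3.3, numpy 2.4.6 and scipy 1.17.1, under Python 3.11.15.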

Additional observations from a re-analysis of the deposited data

How the results depend on the processing

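Of 45 alternatives, 31 left the value within its interval or, for counts, within 1.5 times, 14 moved it, and none reversed one. With a width limit of 600 bp there were 78 narrow islands and with 1600 bp there were 349. The share above a log2 fold change of 1 was 41.0% at 1600 bp, 71.8% at an FDR of 0.001 and 18.7% when the lower counting bound had to exceed 1. The median log2 fold change was 1.21 at 600 bp and 0.92 at 1600 bp. Median input reads per kb were 122.5 and 62.9, and their ratio to wider islands within 2 Mb was 3.40 and 1.41. Within 50 kb, 46.8% had another island. Listed genes with a narrow island numbered 5 when the island had to overlap the gene start and 7 at 600 bp. Leaving out islands near centromere gaps, an alternative added after seeing the data, gave 106.25 input reads per kb. The chromosome test passed its threshold under all 5 of its alternatives, the lowest chi-square being 48.9 with neighbours counted once. No paired analysis was possible because all 6 libraries are merged in 1 list. For the same reason no library could be left out. Depth limits single islands: with a median of 66 IP reads, the interval spans more than 1 log2 unit in 79 of 139.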
